A study of Homo sapiens with 63 samples.

Results

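The genes described here are 10 transcripts of the response to low oxygen that lie outside glycolysis: BNIP3, BNIP3L, VEGFA, ANKRD37, NDRG1, KDM3A, P4HA1, EGLN1, MIR210HG and CITED2. They were taken by symbol, each symbol matching 1 Ensembl gene, out of 58336 genes in the deposited table, and all 10 passed the filter on low counts that left 19352 genes for testing. Hypoxia-inducible factor (HIF) is a transcription factor made of an oxygen-sensitive alpha subunit and the stable partner ARNT. With oxygen present, prolyl hydroxylases such as EGLN1 mark the alpha subunit, and the VHL ubiquitin ligase has it destroyed. When oxygen falls the alpha subunit persists and switches on genes for glycolysis, mitophagy, blood vessel growth and collagen processing, together with inhibitors of HIF itself such as EGLN1 and CITED2, and several of these genes are read as a gauge of HIF activity in cultured cells.

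The cells were HEK293T, an established human embryonic kidney line, and every sample carried this label. According to the series' design text they expressed the Halo tag ectopically, were loaded for 2 h with 10 µM of a Halo-binding precursor of the acyl glucuronide of ibuprofen or ibufenac, were washed, and were lit for 3 min at 365 nm and 5 mW/cm2. Ibufenac is ibuprofen without its α-methyl group, and acyl glucuronides are reactive metabolites of such acids. The 63 libraries form 7 arms, namely DMSO (the vehicle), Ibuprofen bolus, Ibufenac bolus, Ibuprofen photocaged, Ibufenac photocaged, Ibuprofen probe and Ibufenac probe, each with 3 replicates at each of 6, 12 and 18 h, or 21 groups. What separates a photocaged from a probe form, which arms were loaded and lit, and the bolus dose are not in the labels. Nor do these say whether replicates were separate cultures, so p-values may measure technical spread only. Differences between arms cannot be told apart from differences in loading or light. In bulk libraries, a lower level from fewer cells that carry a transcript and one from less transcript per cell cannot be told apart.

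HIF binds DNA at a short core, ACGTG or GCGTG, and the upstream DNA of 3 of the genes is shown. They were chosen because a long part of their window lies before every annotated exon and holds a core. RefSeq promoter entries (GRCh38.p14) were found for 7 of the 10 genes (ANKRD37, BNIP3, CITED2, EGLN1, KDM3A, MIR210HG and P4HA1). The cores, on either strand, are in capitals, and the DNA reads 5′ to 3′ along the strand of the gene.
BNIP3: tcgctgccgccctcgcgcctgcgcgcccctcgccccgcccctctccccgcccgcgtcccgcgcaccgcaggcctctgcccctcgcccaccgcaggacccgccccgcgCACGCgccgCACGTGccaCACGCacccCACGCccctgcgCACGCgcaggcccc
CITED2: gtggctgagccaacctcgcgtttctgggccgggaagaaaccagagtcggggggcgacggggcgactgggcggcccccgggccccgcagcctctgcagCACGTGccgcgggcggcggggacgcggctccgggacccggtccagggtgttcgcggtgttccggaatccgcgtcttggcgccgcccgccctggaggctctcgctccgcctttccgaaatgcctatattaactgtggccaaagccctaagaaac
MIR210HG: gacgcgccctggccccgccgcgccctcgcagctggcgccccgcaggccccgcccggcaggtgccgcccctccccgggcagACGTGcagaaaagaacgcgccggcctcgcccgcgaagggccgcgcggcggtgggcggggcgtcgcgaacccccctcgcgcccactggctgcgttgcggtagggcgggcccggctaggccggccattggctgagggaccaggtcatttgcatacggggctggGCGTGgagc
The BNIP3 stretch, the 160 bases of its window farthest from the start, is chr10:131982014-131982173 on the minus strand, the CITED2 stretch is chr6:139374649-139374898 on the minus strand, and the MIR210HG stretch is chr11:568458-568707 on the minus strand. BNIP3 holds 6 matches at 5 sites within the 250 bases before its start, 1 site being a palindrome that reads as a core on both strands, of which the nearest lies 104 bases and the farthest 143 bases upstream. CITED2 holds 1 such palindrome, 152 bases upstream, counted as 2 matches. MIR210HG holds 2 matches at 2 sites, 9 and 170 bases upstream. ANKRD37 had 3 matches in its entry, and EGLN1, KDM3A and P4HA1 had 1 each in the entry of their first start. All 250 bases of the ANKRD37 and EGLN1 windows lie in annotated exons of the same gene. For KDM3A and P4HA1 223 and 108 bases do. Of 35114 RefSeq windows of 250 bases, 43.2% hold at least 1 core, 19.4% at least 2 and 7.76% at least 3, so a match is common and only describes these letters.

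Library totals ran from 12.1 M to 38.4 M counts (median 19.6 M). The share of mitochondrial counts had a median of 0.296% and was highest, at 0.999%, in Ibufenac bolus 6 h replicate 3. Of 7 markers of the HEK293 lineage, 6 exceeded 1 CPM (library-scaled counts, here scaled also by edgeR's normalisation factors), while PAX2 did not. Their summed level ran from 398 to 638 CPM, and of 5 hepatocyte markers ALB alone passed 1 CPM. Of 4 fibroblast markers COL1A1 and COL3A1 passed it (summed level of the 4, 2.56 to 9.35 CPM), and of 4 blood and 4 endothelial markers none did. Their part in the results was not tested. The third DMSO replicate at 18 h stands apart from the other DMSO libraries for the genes described here. It was the highest of all 63 libraries for 9 of the 10, KDM3A being the exception, although its total of 16.7 M counts, its 71.0% of protein-coding counts and its 0.255% of mitochondrial counts lay close to those of the other DMSO libraries at 18 h (16.0 M and 16.9 M, 70.4% and 70.5%, 0.262% and 0.305%). The main results against DMSO are therefore also given without it.

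Scaled for gene length and library size (FPKM, as deposited), NDRG1 was the most abundant of the 10 in DMSO, at 41.7 ± 14.4 (SD, n = 9 libraries over the 3 times). BNIP3 (28.8 ± 12.6 FPKM) and VEGFA (28.6 ± 5.79 FPKM) followed, then P4HA1 (21.3 ± 5.07), KDM3A (20.0 ± 3.57) and BNIP3L (17.4 ± 4.14), whose neighbours in this order did not differ beyond their spread. EGLN1 stood at 9.14 ± 2.31 FPKM, CITED2 at 5.16 ± 1.23 FPKM, and ANKRD37 (2.64 ± 0.998) and MIR210HG (2.63 ± 1.71) were lowest. ANKRD37 had 8 to 88 counts per library and MIR210HG 1 to 147, so their values are the least precise.

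**Figure D1:**
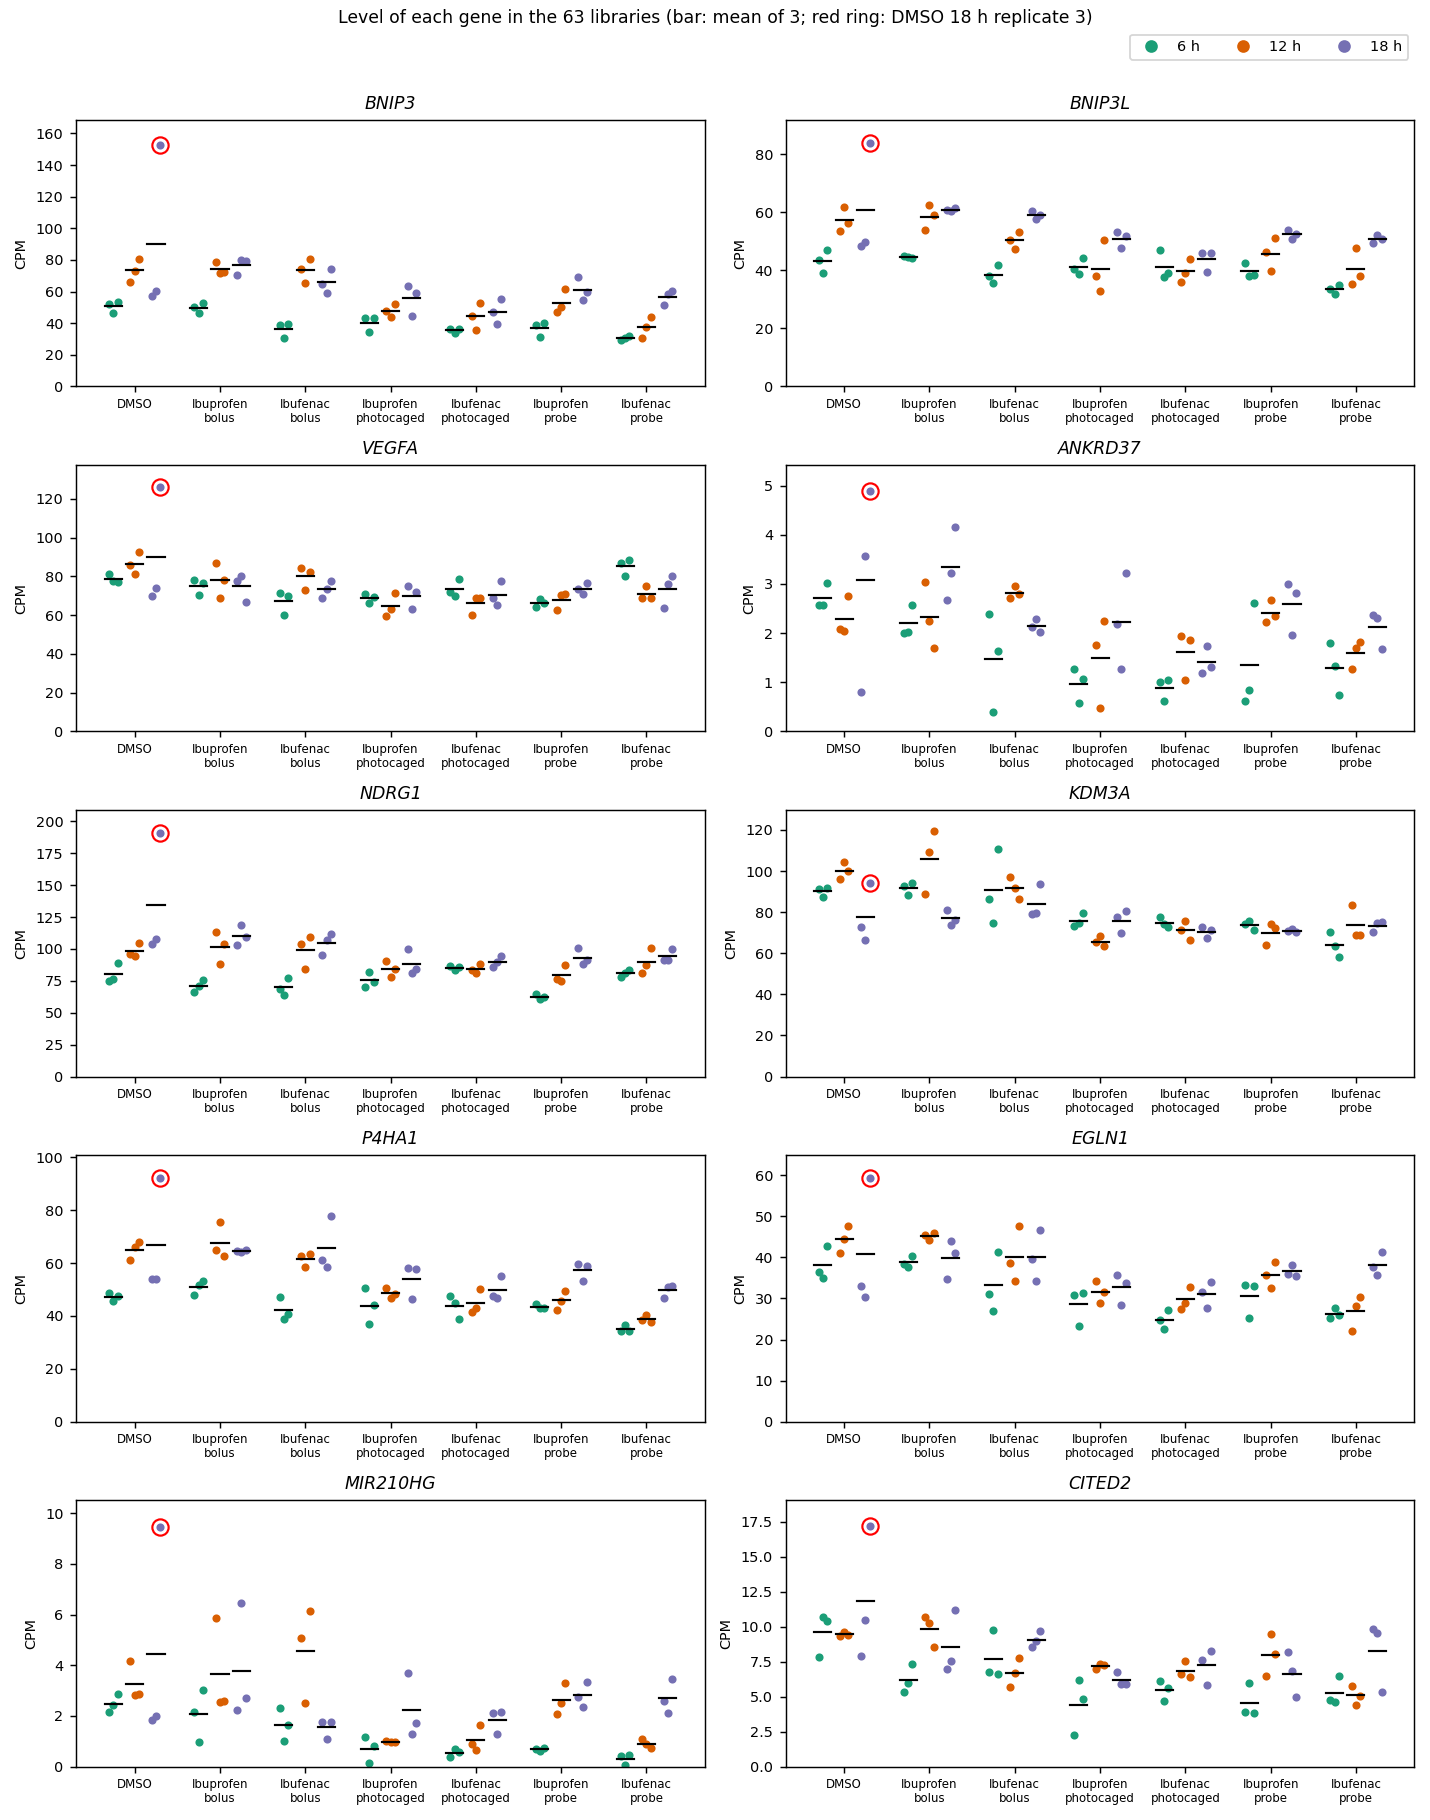
Level of each gene in CPM (vertical axis, from 0) in all 63 libraries, by arm (horizontal axis) and time (colour), with a bar at each mean of 3 replicates and a red ring around the third DMSO replicate at 18 h. The ringed library is the highest point in 9 of the 10 panels, and the photocaged and probe arms lie mostly below DMSO and the bolus arms at 6 and 12 h.

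The order of the 21 groups shows where each gene stood lowest and highest. The lowest group was a photocaged or probe arm for all 10 genes, at 6 h for every one but VEGFA, and it was the Ibufenac probe arm at 6 h for BNIP3, BNIP3L, KDM3A, P4HA1 and MIR210HG. The highest group was DMSO or a bolus arm in each case. BNIP3 spanned from 30.6 ± 1.14 CPM (SD, n = 3) with the Ibufenac probe at 6 h to 90.2 ± 54.2 CPM in DMSO at 18 h. Without the third replicate DMSO at 18 h averaged 58.9 CPM and ranked 7 of 21, behind the Ibuprofen bolus at 18 h (76.7 ± 5.40 CPM). VEGFA varied least, 1.39-fold between its lowest and highest group means, and MIR210HG most, 14.7-fold, from 0.311 ± 0.213 to 4.58 ± 1.87 CPM (Ibufenac bolus at 12 h).

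Averaged over the 3 times, most of the 10 genes fell against DMSO in the photocaged and probe arms, and none rose (1.98%, 4.13%, 3.81% and 5.87% of all genes rose, in the order of the next sentences). With photocaged ibuprofen 9 of 10 fell (all but ANKRD37), where 2.3% of all tested genes fell. With photocaged ibufenac all 10 fell against 3.36% of all genes, with the ibuprofen probe 7 fell against 4.61%, and with the ibufenac probe 8 fell against 7.31%. A gene is said to fall or rise where the Benjamini-Hochberg adjusted p of edgeR's quasi-likelihood test over all 19352 genes was under 0.05. The median log2 change of the 10 was -0.37, -0.44, -0.35 and -0.49 in these arms, and the median of all genes was within 0.01 of 0. Without the third DMSO replicate at 18 h, 7, 9, 6 and 7 of the 10 fell, where 1.81%, 2.82%, 5% and 6.9% of all genes fell, and the median changes of the 10 were -0.26, -0.33, -0.24 and -0.38. The comparisons share the DMSO libraries. The 10 genes were chosen with earlier results of these data known, so the share of all genes gives scale and is no independent test.

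**Figure D2:**
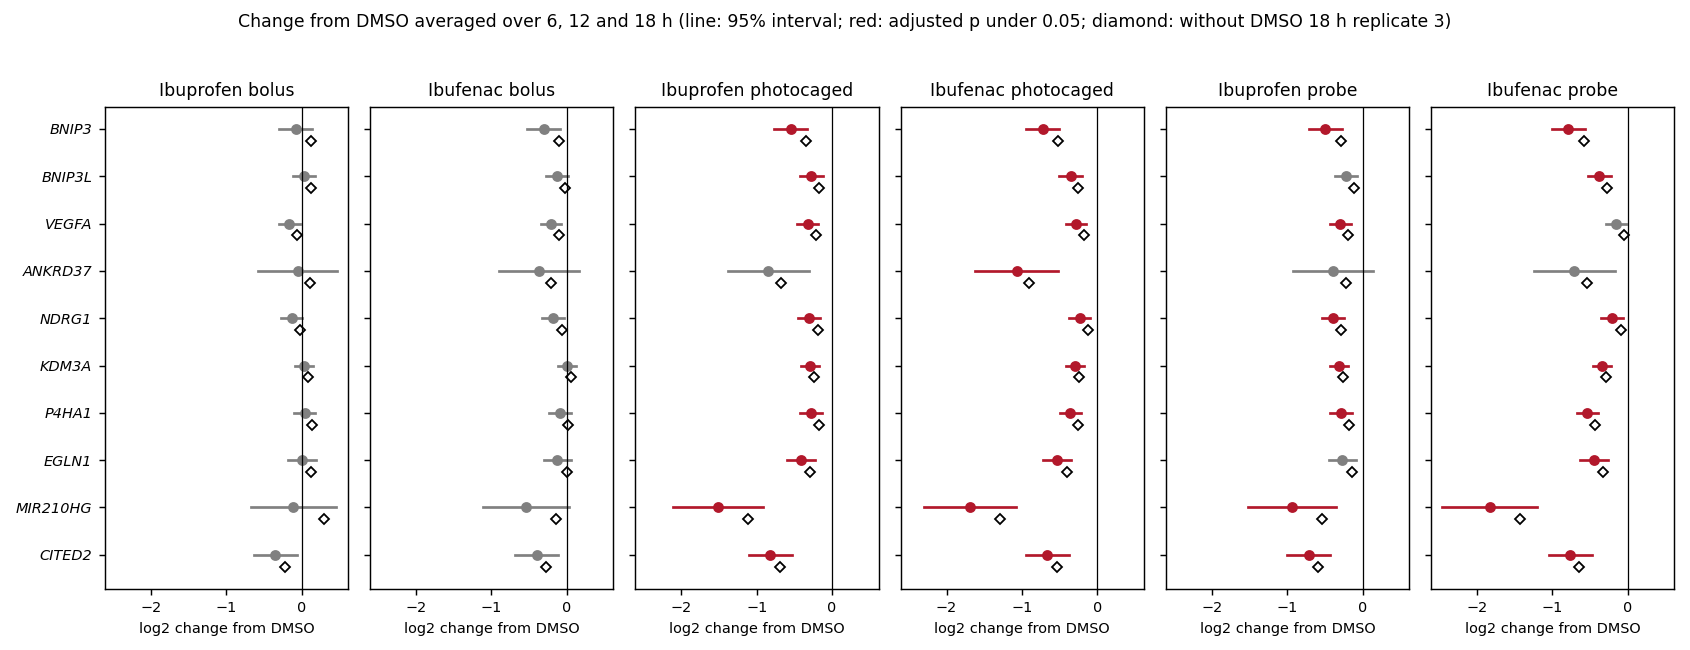
Log2 change from DMSO averaged over 6, 12 and 18 h (horizontal axis) for each gene (vertical axis) in the 6 drug arms, with 95% intervals, in red where the adjusted p was under 0.05, and as open diamonds without the third DMSO replicate at 18 h. All 40 points in the photocaged and probe panels lie below 0, and the diamonds lie nearer to 0 than the points there.

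BNIP3 and BNIP3L encode related receptors in the outer mitochondrial membrane that hand mitochondria to autophagy. BNIP3 (chr10:131966455-131982013, minus strand, GENCODE 29 on GRCh38) was at 51.9, 46.3 and 53.6 CPM in DMSO at 6 h, 66.3, 73.2 and 80.7 CPM at 12 h and 57.1, 60.7 and 153 CPM at 18 h. With the ibufenac probe it was at 29.4, 30.9 and 31.6 CPM, then 30.9, 37.5 and 43.8 CPM, then 51.3, 58.3 and 60.2 CPM. The arms did not overlap at 6 or 12 h and overlapped at 18 h. BNIP3 fell in all 4 arms, by 31.6% with photocaged ibuprofen (log2 change -0.55 ± 0.11 SE, adjusted p = 0.00125, 9 libraries per arm), and by 42.1% with the ibufenac probe (-0.79 ± 0.11, adjusted p = 4.66e-07). The other 2 changes were -0.73 ± 0.11 with photocaged ibufenac and -0.50 ± 0.11 with the ibuprofen probe. With the third DMSO replicate at 18 h left out the changes were -0.34, -0.52, -0.29 and -0.58 in the order photocaged ibuprofen, photocaged ibufenac, ibuprofen probe and ibufenac probe, and all 4 calls held (adjusted p = 0.00785, 1.23e-05, 0.0148 and 4.11e-07).

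BNIP3L, on chromosome 8, moved less. Its median over 9 libraries was 50.0 CPM in DMSO (39.0 to 84.1), 44.1 CPM with photocaged ibuprofen (33.0 to 53.3), 39.6 CPM with photocaged ibufenac (35.9 to 47.2) and 38.2 CPM with the ibufenac probe (32.0 to 52.3). These ranges overlapped. It fell with photocaged ibufenac (-0.35 ± 0.07, adjusted p = 0.000966) and the ibufenac probe (-0.38 ± 0.07, adjusted p = 0.000226). With photocaged ibuprofen it fell by 0.27 on the log2 scale (adjusted p = 0.0218), but not when DMSO 6 h replicate 3 (-0.25), Ibuprofen photocaged 12 h replicate 2 (-0.23) or DMSO 18 h replicate 3 (-0.17, adjusted p = 0.121) was left out. With the ibuprofen probe the change was -0.22 (adjusted p = 0.0528, and -0.12, adjusted p = 0.252, without that last library). PNMA2 overlaps BNIP3L on the opposite strand and averaged 514 counts against 923 for BNIP3L. The libraries were stranded, but whether the counts used the strand is not given in the sources used here. The overlap is of gene spans, and whether the counts separate reads of the pair is not known.

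MIR210HG (chr11:565660-568457, minus strand) is the long noncoding host transcript of the hypoxia-induced microRNA MIR210. The row of MIR210, which overlaps its host on the same strand, averaged 0 counts, and this does not show that the microRNA was absent. The changes of MIR210HG over the 3 times exceeded those of the other 9 genes in all 4 arms. With the ibuprofen probe this did not hold without the third DMSO replicate at 18 h, where CITED2 was at -0.59 and MIR210HG at -0.54. In DMSO at 6 h it was at 2.14, 2.43 and 2.88 CPM (35, 51 and 65 counts). With the ibufenac probe it was at 0.404, 0.0666 and 0.461 CPM at that time (7, 1 and 8 counts), below every DMSO library. Over the 3 times it fell in all 4 arms, with log2 changes of -1.51 ± 0.30 with photocaged ibuprofen (adjusted p = 0.00108), -1.69 ± 0.30 with photocaged ibufenac (adjusted p = 0.000122), -0.94 ± 0.29 with the ibuprofen probe (adjusted p = 0.0341) and -1.83 ± 0.31 with the ibufenac probe (adjusted p = 2.2e-05). The third DMSO replicate at 18 h was at 9.45 CPM against 1.85 and 1.98 CPM in the others, and without it the changes were -1.11, -1.29, -0.54 and -1.43. The ibuprofen probe call then ended (adjusted p = 0.219), as it did without any one of 9 other libraries of the 18.

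EGLN1 and CITED2 act against HIF. EGLN1 (chr1:231363751-231425044, minus strand), the prolyl hydroxylase described above, had a median of 41.1 CPM in DMSO (30.3 to 59.4), 31.4 CPM with photocaged ibuprofen (23.3 to 35.7) and 27.6 CPM with photocaged ibufenac (22.5 to 34.0). It fell in these arms (-0.41 ± 0.09, adjusted p = 0.00423, and -0.53 ± 0.09, adjusted p = 6.96e-05) and with the ibufenac probe (-0.45 ± 0.09, adjusted p = 0.000331). With the ibuprofen probe its change was -0.27 (adjusted p = 0.0563). Without the third DMSO replicate at 18 h the 4 changes were -0.29, -0.41, -0.14 and -0.33, and the 3 calls held.

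CITED2 (chr6:139371807-139374620, minus strand) competes with HIF for the coactivators EP300 and CREBBP. At 6 h it was at 7.84, 10.7 and 10.4 CPM in DMSO, 2.24, 6.18 and 4.82 CPM with photocaged ibuprofen and 4.74, 4.6 and 6.45 CPM with the ibufenac probe, and neither arm overlapped DMSO. CITED2 fell in all 4 arms over the 3 times, with log2 changes of -0.82 ± 0.14, -0.66 ± 0.14, -0.71 ± 0.14 and -0.76 ± 0.14 in the order photocaged ibuprofen, photocaged ibufenac, ibuprofen probe and ibufenac probe (adjusted p = 0.000202, 0.00117, 0.000704 and 9.83e-05). The changes were -0.70, -0.54, -0.59 and -0.64 without the third DMSO replicate at 18 h, and all 4 calls held.

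P4HA1 and KDM3A encode enzymes that need oxygen to work, a collagen prolyl hydroxylase subunit and a histone demethylase. P4HA1 (chr10:73007217-73096974, minus strand) was at 61.0, 66.1 and 68.1 CPM in DMSO at 12 h and at 38.3, 40.5 and 37.7 CPM with the ibufenac probe. It fell most in that arm, by 31.0% over the 3 times (-0.53 ± 0.07, adjusted p = 1.53e-07, -0.43 without the third DMSO replicate at 18 h). The changes were -0.36 with photocaged ibufenac (adjusted p = 0.000491) and -0.28 with the ibuprofen probe (adjusted p = 0.0071, and -0.18, still called, without that library). With photocaged ibuprofen the change was -0.28 (adjusted p = 0.0135), and that call ended without the third DMSO replicate at 18 h (-0.18, adjusted p = 0.0799). KDM3A (chr2:86440647-86492716, plus strand) changed by similar amounts in the 4 arms over the 3 times, though unevenly between times. It fell in all 4 arms, with log2 changes of -0.30, -0.30, -0.31 and -0.34, each ± 0.06, in the order photocaged ibuprofen, photocaged ibufenac, ibuprofen probe and ibufenac probe (adjusted p = 0.00112, 0.000409, 0.000371 and 2.9e-05). All 4 calls held without the third DMSO replicate at 18 h (-0.24, -0.25, -0.26 and -0.28). At 18 h alone its changes were -0.03, -0.14, -0.13 and -0.08, none of them called, and 0.13, 0.02, 0.03 and 0.08 without that library.

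VEGFA, NDRG1 and ANKRD37 moved less or less evenly. VEGFA (chr6:43770184-43786487, plus strand), the secreted growth factor for blood vessels, fell with photocaged ibuprofen (-0.32 ± 0.07, adjusted p = 0.00187), photocaged ibufenac (-0.28 ± 0.07, adjusted p = 0.00458) and the ibuprofen probe (-0.30 ± 0.07, adjusted p = 0.00314). These VEGFA changes were -0.22, -0.17 and -0.19 without the third DMSO replicate at 18 h, and the calls held. With the ibufenac probe its change was -0.16 (adjusted p = 0.122, and -0.05, adjusted p = 0.642, without that library), and at 6 h its 86.8, 80.0 and 88.5 CPM there overlapped the 81.1, 77.8 and 76.9 CPM of DMSO. NDRG1, a stress-responsive cytoplasmic protein encoded on chromosome 8, fell in all 4 arms (-0.30, -0.24, -0.40 and -0.21, adjusted p = 0.00698, 0.0286, 0.000234 and 0.0437 in the order photocaged ibuprofen, photocaged ibufenac, ibuprofen probe and ibufenac probe). The calls of both ibuprofen arms held without the third DMSO replicate at 18 h (-0.19 and -0.28). Those of both ibufenac arms ended without the third DMSO replicate at 18 h (-0.12, adjusted p = 0.202, and -0.09, adjusted p = 0.308), and they also ended without any one of 5 and 10 other libraries of the 18. ANKRD37 (chr4:185396021-185400628, plus strand), an ankyrin repeat protein, fell with photocaged ibufenac alone (-1.07 ± 0.27, adjusted p = 0.0073, -0.90 without the third DMSO replicate at 18 h). The change was -0.85 ± 0.27 with photocaged ibuprofen (adjusted p = 0.0582) and -0.71 ± 0.27 with the ibufenac probe (adjusted p = 0.071). Without that library these were -0.68 and -0.54, and the change with the ibuprofen probe went from -0.39 to -0.22. It averaged 39.2 counts and its span overlaps UFSP2 (333 counts) on the opposite strand. Whether the counts separate reads of that pair is not known either.

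The bolus arms gave no call for any of the 10 genes with the low-count filter, and without that filter 2 of 10 were called with the Ibufenac bolus, BNIP3 and VEGFA. The share of all genes called without the filter is not given here. With the filter edgeR called 0 of 10 over the 3 times with either drug, where 0.0258% of all genes were called with the Ibuprofen bolus and 0.0103% with the Ibufenac bolus. An unadjusted p under 0.05 was reached by 2 and 4 of the 10, all with lower levels. Of all 19352 genes, 2035 and 1688 reached it. DESeq2 also called 0 of the 10 in both arms. With the Ibuprofen bolus the median change was -0.07, VEGFA changed by -0.16 (95% interval -0.30 to -0.03) and CITED2 by -0.35 (-0.63 to -0.07). With the Ibufenac bolus the median was -0.20 and all 10 changes were below 0. BNIP3 changed by -0.31 there (-0.53 to -0.09, adjusted p = 0.423) and CITED2 by -0.40 (-0.68 to -0.12, adjusted p = 0.416), while KDM3A was at -0.00 (-0.12 to 0.11). These intervals leave room for falls as large as their lower bounds. MIR210HG had the largest change with the Ibufenac bolus (-0.54, adjusted p = 0.590). With the third DMSO replicate at 18 h left out, still 0 of 10 were called in either arm. For the Ibuprofen bolus the median was then 0.12 and 7 of the 10 changes lay above 0, with BNIP3 at 0.12, MIR210HG at 0.29, VEGFA at -0.06 and CITED2 at -0.22. For the Ibufenac bolus the median was -0.09 and 2 changes lay above 0, KDM3A (0.05) and P4HA1 (0.01), with BNIP3 at -0.10, MIR210HG at -0.14 and CITED2 at -0.28.

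At single times the picture was uneven. At 6 h, 7, 6, 8 and 8 of the 10 genes had all 3 libraries below all 3 DMSO libraries in the order photocaged ibuprofen, photocaged ibufenac, ibuprofen probe and ibufenac probe, where 9.02%, 8.82%, 16.9% and 16.8% of all genes did. At 12 h this held for 9, 10, 7 and 9 of 10 against 11.1%, 12.8%, 13.1% and 11.3% of all genes. At 18 h it held for 2, 3, 1 and 2 of 10 against 10.3%, 10.8%, 10.3% and 8.15%. In the bolus arms it held for 1, 0 and 0 of 10 with ibuprofen (10.5%, 4.71% and 4.87% of all genes at 6, 12 and 18 h) and for 3, 2 and 1 with ibufenac (6.57%, 7.64% and 10.2%). The groups of the photocaged and probe arms were thus mostly separate from DMSO at 6 and 12 h and mostly overlapped it at 18 h.

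By the test at 6 h, 1, 2, 2 and 6 of the 10 fell in the same order of arms (0.393%, 1.26%, 7.82% and 8.11% of all genes fell). BNIP3, KDM3A and MIR210HG with the ibufenac probe (-0.72, -0.49 and -2.94, adjusted p = 0.00813, 0.0005 and 0.00045) and CITED2 with the ibuprofen probe (-1.07, adjusted p = 0.0047) kept their calls without any single library of the 6 compared. The other 7 calls at 6 h ended without 1 or more of these libraries. At 12 h 2, 5, 2 and 7 of the 10 fell (0.579%, 1.11%, 1.61% and 2.67% of all genes), and KDM3A was called in all 4 arms. KDM3A was at 95.9, 104 and 100 CPM in DMSO at 12 h. It was at 65.3, 68.2 and 63.6 CPM with photocaged ibuprofen, 71.1, 75.9 and 66.4 CPM with photocaged ibufenac, 63.8, 74.2 and 72.2 CPM with the ibuprofen probe and 83.4, 68.8 and 69.0 CPM with the ibufenac probe, each group below every DMSO library. These changes of KDM3A (-0.61, -0.49, -0.52 and -0.44, adjusted p = 0.000859, 0.00354, 0.00219 and 0.00457) and those of BNIP3 (-0.97), P4HA1 (-0.75) and EGLN1 (-0.72) with the ibufenac probe kept their calls without any single library. The other 9 calls at 12 h did not.

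At 18 h 3, 4, 1 and 3 of the 10 fell (1.22%, 1.19%, 0.76% and 0.889% of all genes), and all 11 of these calls ended without the third DMSO replicate. BNIP3 with photocaged ibufenac, for example, changed by -0.94 (adjusted p = 0.00311) and by -0.32 without that library (adjusted p = 0.233). NDRG1 changed by -0.61, -0.58, -0.53 and -0.51 in the 4 arms at 18 h, and by -0.27, -0.24, -0.19 and -0.17 without it. In the bolus arms none of the 10 was called at 6, 12 or 18 h, where 0%, 0.0103% and 0.0723% of all genes were called with ibuprofen and 0.0258%, 0% and 5.03% with ibufenac. An unadjusted p under 0.05 was reached with ibuprofen by 1, 0 and 2 of the 10 (2134, 1111 and 1661 of all genes). With ibufenac it was reached by 1, 1 and 4 of the 10 (2019, 695 and 4187 of all 19352 genes).

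**Figure D3:**
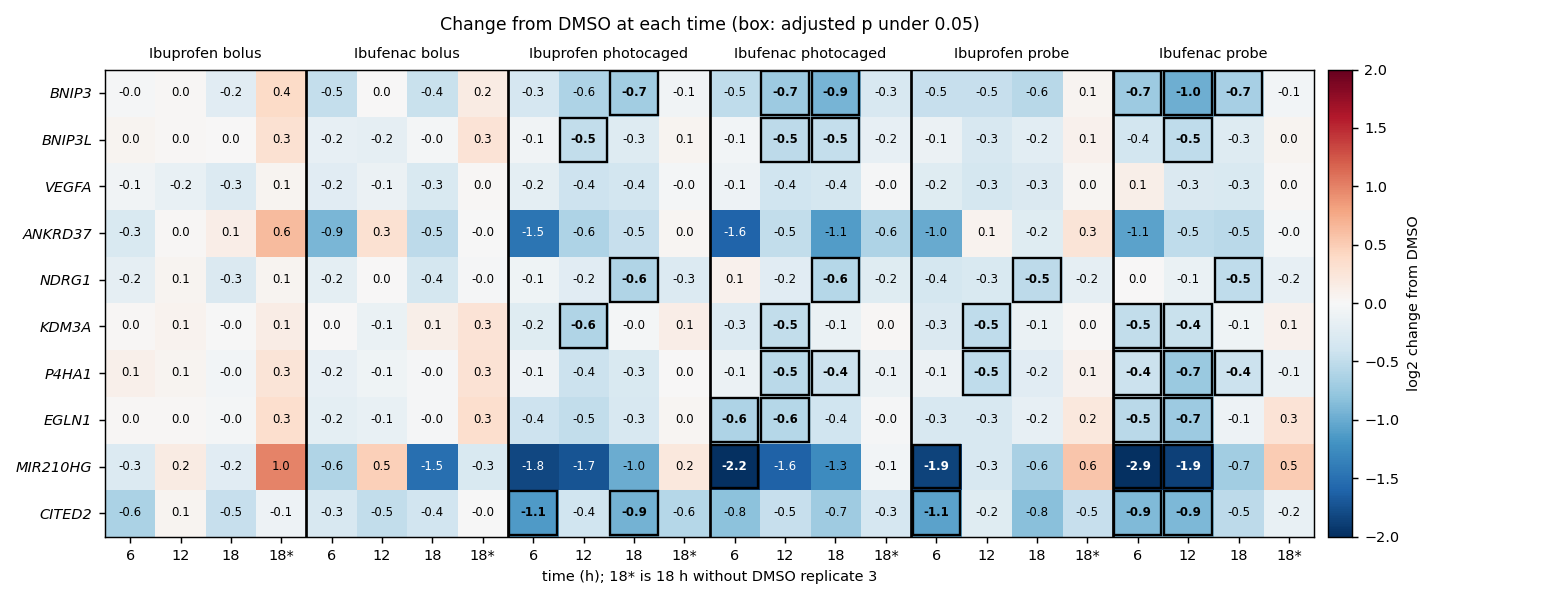
Log2 change from DMSO of each gene (rows) at 6, 12 and 18 h in each drug arm (columns), with the value in each cell, a box where the adjusted p was under 0.05, and a colour scale that stops at 2 in either direction. The column 18* leaves out the third DMSO replicate at 18 h, and the boxes of the 18 h columns are absent from it.

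Levels also moved with time in culture. In DMSO, between 6 and 18 h, BNIP3 (+0.83), BNIP3L (+0.49), NDRG1 (+0.75) and P4HA1 (+0.50) rose, 4 of 10 where 7.42% of all genes rose. Without the third replicate at 18 h the changes were 0.22, 0.19, 0.41 and 0.19, only the call of NDRG1 held among these (adjusted p = 0.00461), and KDM3A fell (-0.38, adjusted p = 0.011, against -0.21 with it), where 5.37% and 8.39% of all genes rose and fell in that fit. The same 4 genes rose over that span in both bolus arms, by 0.62, 0.45, 0.64 and 0.34 with ibuprofen and by 0.87, 0.62, 0.58 and 0.65 with ibufenac, where 11.9% and 9.19% of all genes rose. Between 6 and 12 h in DMSO P4HA1 rose (+0.46, adjusted p = 0.0188), 1 of 10 where 2.34% of all genes rose. Between 12 and 18 h NDRG1 rose (+0.45, and 0.11 without the third replicate, which ended the call) and KDM3A fell (-0.37, and -0.53 without it), where 1.91% and 3.35% of all genes rose and fell.

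In the photocaged and probe arms MIR210HG rose from 6 to 18 h in each, by 1.66 with photocaged ibuprofen, 1.75 with photocaged ibufenac, 2.04 with the ibuprofen probe and 3.07 ± 0.61 with the ibufenac probe (adjusted p = 0.0353, 0.0356, 0.00683 and 0.000108). With the ibufenac probe its libraries went from 0.404, 0.0666 and 0.461 CPM through 1.08, 0.882 and 0.738 CPM to 2.60, 2.13 and 3.44 CPM, with no overlap between times. In that arm BNIP3 (0.89), BNIP3L (0.60), P4HA1 (0.51) and EGLN1 (0.54) rose too, which makes 5 of 10 against 12.6% of all genes. With the ibuprofen probe 5 of 10 rose against 7.2%, and in the photocaged arms 1 of 10 each against 5.27% and 4.74%.

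Whether the change between 6 and 18 h differed from that in DMSO was tested as an interaction. Over all arms and times, the treatment by time term of NDRG1 (adjusted p = 0.0343), KDM3A (adjusted p = 0.0118) and MIR210HG (adjusted p = 0.0248) passed, 3 of 10 where 22.8% of all genes passed. Without the third DMSO replicate at 18 h, 8 of the 10 passed where 24.9% of all genes did, all but ANKRD37 (adjusted p = 0.697) and CITED2 (adjusted p = 0.0881), with BNIP3 at 0.00487 and P4HA1 at 0.00374. The call of NDRG1 ended without any one of 6 other libraries and that of MIR210HG without any one of 3, while that of KDM3A held without any single library. Arm by arm the 18 against 6 h difference from that of DMSO called 0 of 10 in edgeR in each of the 6 arms, where 0%, 0.672%, 0.0568%, 0.636%, 0.0362% and 7.98% of all genes passed (bolus, photocaged and probe, ibuprofen before ibufenac in each). Of the 10, 4 had an unadjusted p under 0.05 with the ibufenac probe and 0 to 2 in the others. Among all 19352 genes, 4228 had one with the ibufenac probe and 1470 to 3332 in the others. Without the third DMSO replicate, BNIP3 (+0.67, adjusted p = 0.0291), KDM3A (+0.57, adjusted p = 0.0061), EGLN1 (+0.80, adjusted p = 0.00708) and MIR210HG (+3.45, adjusted p = 0.00174) passed with the ibufenac probe, 4 of 10 where 8.5% of all genes passed.

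Comparing each form with the bolus of the same drug takes no DMSO library into the contrast, though all 63 libraries share the normalisation and the estimate of spread. BNIP3, KDM3A and P4HA1 were lower than in the bolus arm in all 4 comparisons. With photocaged ibuprofen 6 of 10 were lower (2.23% of all genes), with photocaged ibufenac 5 (2.79%), with the ibuprofen probe 5 (2.32%) and with the ibufenac probe 6 (6.18%), and none was higher (1.2%, 3.26%, 1.38% and 5.06% of all genes). The median differences were -0.37, -0.28, -0.33 and -0.34. BNIP3 differed by -0.47, -0.42, -0.42 and -0.48 (adjusted p = 0.00823, 0.013, 0.0173 and 0.00194), KDM3A by -0.33, -0.30, -0.34 and -0.34 (adjusted p = 0.000356, 0.000609, 0.000159 and 4.32e-05), and P4HA1 by -0.32, -0.27, -0.32 and -0.45 (adjusted p = 0.00504, 0.0134, 0.00335 and 9.76e-06). The BNIP3 call with the ibuprofen probe ended without Ibuprofen probe 6 h replicate 2 or 12 h replicate 1 (-0.38 each).

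MIR210HG was lower than in the bolus with photocaged ibuprofen (-1.40, adjusted p = 0.0031), photocaged ibufenac (-1.15, adjusted p = 0.0143) and the ibufenac probe (-1.29, adjusted p = 0.00376). EGLN1 was lower in the same 3 comparisons (-0.42, -0.41 and -0.33, adjusted p = 0.00413, 0.00333 and 0.0131), the last call ending without Ibufenac bolus 6 h replicate 3 (-0.26). BNIP3L was lower with photocaged ibuprofen (-0.30, adjusted p = 0.0115), the ibuprofen probe (-0.25, adjusted p = 0.0447) and the ibufenac probe (-0.25, adjusted p = 0.0214). The ibuprofen probe call of BNIP3L ended without any one of 15 of the 18 libraries, and the ibufenac probe call without Ibufenac bolus 6 h replicate 3 (-0.23) or Ibufenac probe 12 h replicate 1 (-0.22). NDRG1 was lower with the ibuprofen probe alone (-0.26, adjusted p = 0.0234), a call that ended without any one of 6 libraries. With the ibufenac probe VEGFA and NDRG1 differed from the bolus by 0.06 and -0.03. CITED2 and ANKRD37 passed in none of the 4 comparisons (CITED2 -0.47, adjusted p = 0.0513, with photocaged ibuprofen).

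**Figure D4:**
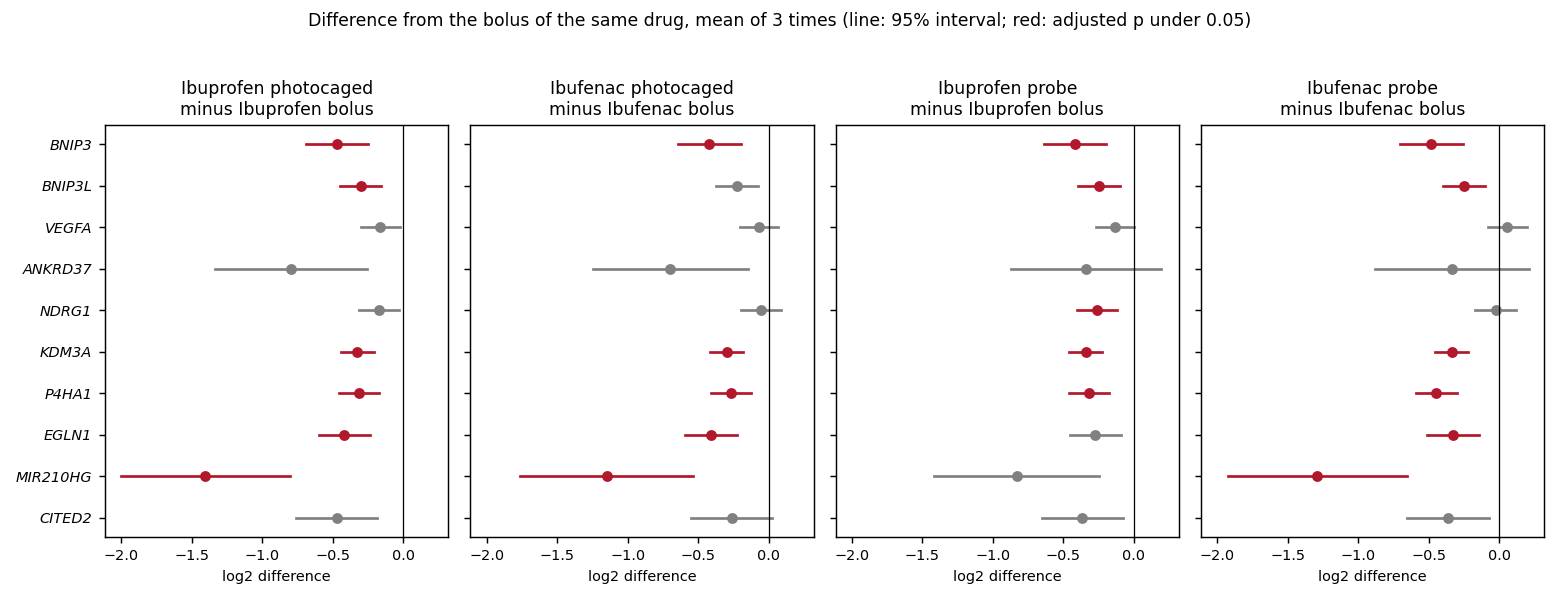
Log2 difference of each gene (vertical axis) from the bolus of the same drug, averaged over the 3 times (horizontal axis), with 95% intervals, in red where the adjusted p was under 0.05. BNIP3, KDM3A and P4HA1 are red in all 4 panels, and VEGFA, ANKRD37 and CITED2 in none.

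Ibufenac and ibuprofen, which differ by the α-methyl group, were compared within each form at matched times. In the probe form P4HA1 was lower with ibufenac, a log2 difference of -0.25 (95% interval -0.39 to -0.11, adjusted p = 0.0386), 1 of 10 where 1.69% of all genes were lower. That call ended without any one of 12 of the 18 libraries (-0.27 to -0.23). The differences of MIR210HG (-0.89, -1.54 to -0.24, adjusted p = 0.118), BNIP3 (-0.29, -0.52 to -0.07, adjusted p = 0.138) and NDRG1 (+0.19, 0.04 to 0.33, adjusted p = 0.139) did not pass, and KDM3A differed by -0.03 (-0.15 to 0.09). At 6 h VEGFA and NDRG1 were higher with the ibufenac probe than with the ibuprofen probe, 2 of 10 where 12.9% of all genes were higher. In a list of 10 such a count is close to that share, so it is not particular to these genes. VEGFA was at 86.8, 80.0 and 88.5 CPM against 64.2, 68.4 and 66.2 CPM (+0.36, 0.13 to 0.60, adjusted p = 0.0191), and NDRG1 at 78.1, 80.8 and 83.6 CPM against 64.4, 60.5 and 62.4 CPM (+0.37, 0.12 to 0.62, adjusted p = 0.0237), with no overlap in either. The VEGFA call ended without Ibuprofen probe 6 h replicate 1 (0.34) or Ibufenac probe 6 h replicate 3 (0.33). The NDRG1 call ended without Ibuprofen probe 6 h replicate 2 (0.35), Ibufenac probe 6 h replicate 2 (0.37) or replicate 3 (0.34). At 12 and 18 h none of the 10 was called in this form (1.92% and 0% of all genes, and 4 and 0 of the 10 with an unadjusted p under 0.05). Such an unadjusted p was reached by 3315 and 1065 of all 19352 genes.

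In the photocaged form edgeR called 0 of 10 between the drugs over the 3 times, where 0.0362% of all genes were called. DESeq2 called 0 too, and 0 of 10 reached an unadjusted p under 0.05 (921 of all 19352 genes did). BNIP3 differed by -0.18 (-0.40 to 0.04), P4HA1 by -0.08 (-0.22 to 0.06), KDM3A by -0.00 (-0.12 to 0.11) and MIR210HG by -0.18 (-0.81 to 0.46), so differences as large as these bounds remain possible. In the bolus form 0 of 10 were called as well (0% of all genes), with BNIP3 (-0.23, -0.45 to -0.01) and BNIP3L (-0.16, -0.31 to -0.01) at an unadjusted p under 0.05 and 0 calls by DESeq2. There 1342 of all 19352 genes reached such an unadjusted p. Between the probe and photocaged forms of 1 drug edgeR called 0 of 10 for ibuprofen and 0 for ibufenac (0.0982% and 2.68% of all genes). P4HA1 with ibufenac alone reached an unadjusted p under 0.05 (-0.18, -0.32 to -0.03), and DESeq2 called 0 in both. Among all genes 1817 with ibuprofen and 2948 with ibufenac reached such an unadjusted p. The drug difference itself did not differ between forms for any of the 10 (0 calls in 3 interaction tests, where 0.031%, 0.403% and 0.0207% of all genes passed). NDRG1 alone had an unadjusted p under 0.05 there, its drug difference in the probe form exceeding that in the bolus form by 0.24 (0.03 to 0.44, adjusted p = 0.401). In that test 1911 of all genes had such an unadjusted p.

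The wider pathway was counted from 6 lists, also chosen with earlier results of these data known. For scale, 2.3%, 3.36%, 4.61% and 7.31% of all genes fell in the order used next. In the same arms 1.98%, 4.13%, 3.81% and 5.87% of all genes rose. Of 21 tested glycolysis genes 13, 17, 16 and 15 fell over the 3 times in the order photocaged ibuprofen, photocaged ibufenac, ibuprofen probe and ibufenac probe, and none rose, with medians of -0.34, -0.37, -0.31 and -0.42. LDHA, which reduces pyruvate to lactate, changed by -0.44, -0.54, -0.43 and -0.69, and PGK1, PGAM1 and PKM fell in all 4 arms too. Of 28 other hypoxia targets 7, 9, 6 and 11 fell and none rose, with medians of -0.15, -0.13, -0.19 and -0.22. Among them PLOD2, a collagen lysyl hydroxylase, fell in all 4 (-0.55, -0.60, -0.39 and -0.77), and so did ANKZF1 (-0.32, -0.39, -0.32 and -0.33). HILPDA, a lipid droplet protein, fell in 3 (-0.47, -0.60 and -0.61) and was at -0.21 with the ibuprofen probe. The transcription factor BHLHE40 fell in 3 (-0.49, -0.55 and -0.31) and was at -0.23 with the ibufenac probe. Leaving out the third DMSO replicate at 18 h, the glycolysis counts were 9, 13, 11 and 13 (medians -0.23, -0.24, -0.25 and -0.34), and those of the other hypoxia targets 3, 8, 3 and 10 lower with 1 higher in the ibuprofen probe arm (VLDLR) and 2 in the ibufenac probe arm (STC2 and VLDLR), with medians of -0.10, -0.10, -0.10 and -0.15. In that fit 1.81%, 2.82%, 5% and 6.9% of all genes fell and 1.84%, 4.07%, 4.59% and 5.96% rose. PLOD2 and BHLHE40 with the ibuprofen probe (-0.21 and -0.12) and HILPDA with photocaged ibuprofen (-0.33) were then no longer called.

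The HIF machinery itself moved little. Of 12 tested genes none fell in 3 of the arms, and 2 fell with the ibufenac probe, EPAS1, an alpha subunit (-0.34, adjusted p = 0.0272, and -0.30, adjusted p = 0.0738, without the third DMSO replicate at 18 h), and ELOC, part of the VHL ligase (-0.27). The partner subunit gene ARNT2 rose with photocaged ibufenac (0.23, adjusted p = 0.00134), the ibuprofen probe (0.18, adjusted p = 0.0162) and the ibufenac probe (0.23, adjusted p = 0.000789), and was at 0.14 with photocaged ibuprofen (adjusted p = 0.112). HIF1A, whose values were looked up after the lists were counted, was within 0.03 of 0 on the log2 scale in these 4 arms (-0.01, 0.01, 0.03 and 0.02, each ± 0.04). EGLN3, a paralog of EGLN1, fell in both photocaged arms (-0.56 and -0.55) and with the ibufenac probe (-0.78). CITED1, a paralog of CITED2, fell with both probes (-0.51 and -0.72). Of 11 tested paralogs 1, 1, 1 and 2 fell, and 1 rose, JMJD1C with the ibufenac probe (0.32). Lists this short cannot set counts of 1 or 2 apart from the 2.3% to 7.31% of all genes that fell. The EGLN3 calls in the photocaged arms ended without the third DMSO replicate at 18 h (-0.45 each).

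Genes that work beside BNIP3 in mitophagy did not fall with it in most cases. Of 11 tested, 1, 2, 1 and 5 rose and 0, 0, 0 and 1 fell, with medians of 0.06, 0.09, 0.07 and 0.07. Among all genes 1.98%, 4.13%, 3.81% and 5.87% rose and 2.3%, 3.36%, 4.61% and 7.31% fell. A list of 11 with few or no falls is therefore not particular. GABARAPL1, an autophagosome protein that such receptors bind, rose in both photocaged arms and with the ibufenac probe (0.30, 0.39 and 0.33) and was at 0.23 with the ibuprofen probe (adjusted p = 0.0563, and 0.26, adjusted p = 0.0329, without the third DMSO replicate at 18 h). OPTN, another receptor, rose with photocaged ibufenac (0.23) and the ibufenac probe (0.27). Of 6 tested genes of the VEGF family and its receptors none was called in 3 of the arms, and NRP2, a coreceptor, fell with the ibufenac probe (-0.31, adjusted p = 0.0483, and -0.27, adjusted p = 0.107, without the third DMSO replicate at 18 h). No gene of the 6 lists was called in either bolus arm. EGLN3 and P4HA2 are counted in 2 of the lists.

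**Figure D5:**
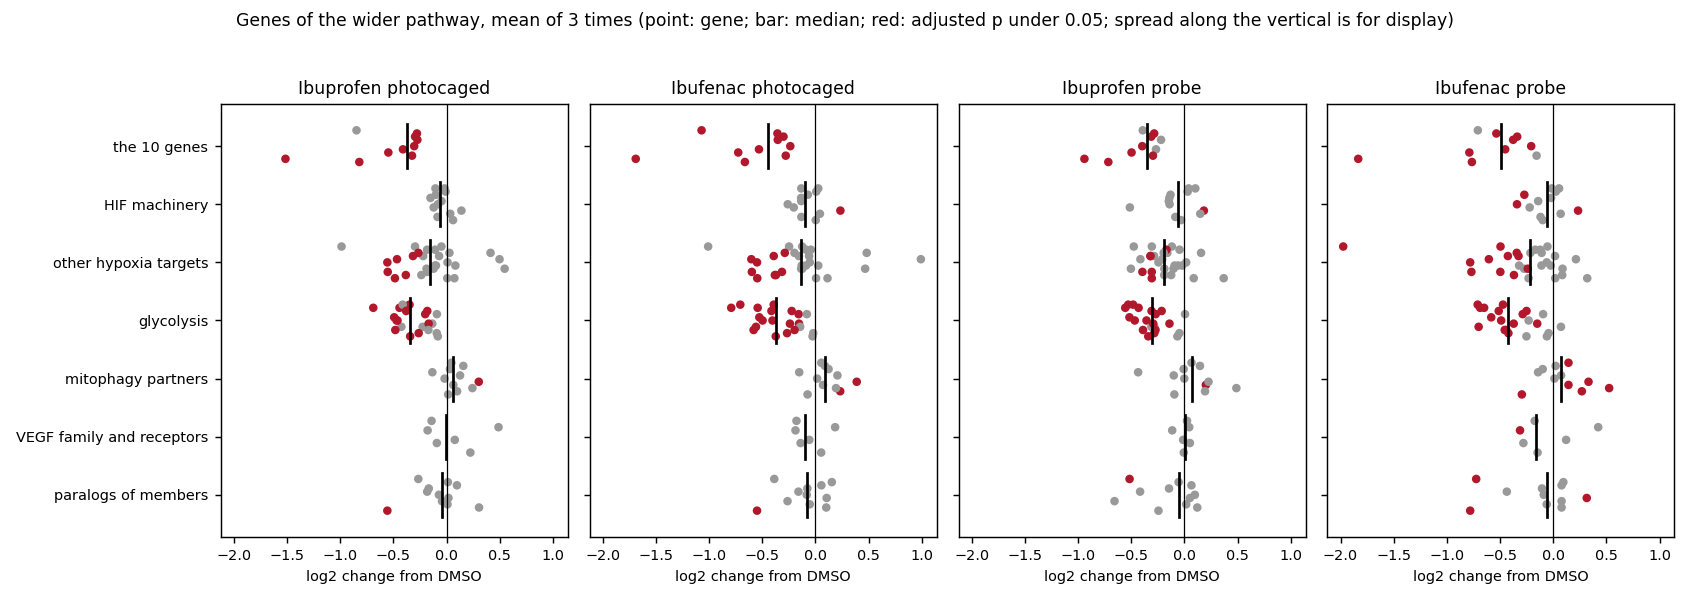
Log2 change from DMSO averaged over the 3 times (horizontal axis) for the 10 genes and for each list (rows) in the photocaged and probe arms, with 1 point per tested gene, a bar at the median and red for an adjusted p under 0.05. The medians of the 10 genes and of glycolysis lie between -0.31 and -0.49, and those of the HIF machinery and the paralogs between -0.10 and -0.04.

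Across the 21 group means, which share libraries within a group and the DMSO and time structure, the profiles of the 10 genes were alike to different degrees. Pearson's r over the 45 pairs ran from 0.13 to 0.96 with a median of 0.68 (0.11 to 0.96, median 0.65, without the third DMSO replicate at 18 h), given as a description. BNIP3 and P4HA1 were the most alike (r = 0.96), and BNIP3L was nearest to P4HA1 (0.95). Among the 10, VEGFA was nearest to NDRG1 (0.55) (NDRG1 and KDM3A were the least alike pair, r = 0.13). Of 11243 tested genes with at least 5 CPM, those most like the mean profile of the 10 were NRXN3 (0.94), CXCR4 (0.94), PPFIA4 (0.94), IRS4 (0.93), PLOD2 (0.93) and AL035425.3 (0.93). Without the third DMSO replicate at 18 h these were at 0.91, 0.92, 0.91, 0.90, 0.92 and 0.92. The 10 genes themselves ran from 0.48 (VEGFA), 0.57 (KDM3A) and 0.71 (NDRG1) up to 0.96 (BNIP3) with all libraries. Each of the 10 is part of that mean, which raises its own r. Their values are therefore not comparable with those of genes outside the 10. The mean was not scaled per gene, so MIR210HG (SD of its profile 0.99) weighs more in it than VEGFA (0.13).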

How the data were processed

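Total RNA was depleted of ribosomal RNA with Ribo-Zero and made into TruSeq stranded libraries, per the labels' protocols. The authors deposited 1 table of estimated counts per gene (22.6% of values of at least 1 are not whole) and FPKM values beside them. Which aligner, counting program, strand setting and genome build served was not given in the sources used here. The deposited FPKM values were used only to compare levels between genes. Of 58336 identifiers, 57754 were named by the reference table and 462 by GENCODE release 29, and 120 stayed unnamed. Gene coordinates are from GENCODE 29 (GRCh38).

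CPM are counts per 1e6 library counts, scaled with TMM factors. Counts were rounded and tested in edgeR 4.0.16 (R 4.3.3, limma 3.58.1) with TMM factors (0.91 to 1.11), a low-count filter (minimum count 10), 1 mean for each of the 21 groups and quasi-likelihood tests over all 63 libraries. P-values were adjusted by Benjamini-Hochberg over 19352 genes at a threshold of 0.05. The ± values beside log2 changes are standard errors, and intervals cover 95%. There were 15 comparisons averaged over times, 27 at single times, 3 of times in DMSO and 6 in the drug arms (added after seeing the data), 3 drug by form, 6 arm by time and 1 overall interaction. DESeq2 1.42.0, RLE factors, no filter, a replicate block, fewer libraries and leaving out each library in turn were the alternatives. The leave-one-out fits kept the filter and dispersion trend of the full data. The procedure was tested on simulated data. No 2 libraries of the same group agreed within sampling noise (63 pairs), and this was not computed for libraries of different groups.

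The 10 genes and the pathway lists were chosen with earlier results of these data known. All 10 genes are named, along with up to 4 genes per list, those with the smallest adjusted p in the 2 photocaged comparisons, and the 6 most similar profiles. ELOC, EPAS1, HIF1A, JMJD1C, NRP2, STC2 and VLDLR were named after their values were seen.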

Additional observations from a re-analysis of the deposited data

Results flagged for a closer look

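The change with time differed between arms for 3 of the 10 genes, by the treatment by time term of the model over all 63 libraries (edgeR's quasi-likelihood test, 12 degrees of freedom), a share close to the 22.8% of all genes that passed. Without DMSO 18 h replicate 3, 8 of the 10 passed, against 24.9% of all genes. The adjusted p was 0.0118 for KDM3A, 0.0248 for MIR210HG and 0.0343 for NDRG1. KDM3A kept its call without any single library. The call of NDRG1 ended without Ibuprofen bolus 6 h replicate 1, Ibufenac photocaged 6 h replicate 1, 2 or 3, Ibufenac probe 6 h replicate 3 or Ibufenac photocaged 18 h replicate 1 (adjusted p = 0.0501 to 0.0584). The call of MIR210HG ended without Ibufenac bolus 12 h replicate 3, Ibufenac bolus 18 h replicate 2 or Ibufenac probe 18 h replicate 3 (adjusted p = 0.0513 to 0.0671).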

How the results depend on the processing

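No called result of the 10 genes changed direction under the alternatives run. Counts of called genes over the 3 times stayed within 1.5 times of the value given under DESeq2, RLE factors and the replicate block. Replicate numbers did not pair the samples: deviations of same-numbered libraries correlated between -0.13 and 0.21 over 189 pairs (median 0.00), and 24 of 63 libraries were most like their own number. With the replicate block 4 of the 10 passed the treatment by time term, against 3 without it. With no low-count filter 2 of 10 were called with the Ibufenac bolus against DMSO (0 with it), 4 between the probe forms of the drugs (1 with it) and 7 in the treatment by time term (3 with it). Without DMSO 18 h replicate 3 and Ibufenac bolus 18 h replicate 3 together, 3 were called between the probe forms. The treatment by time term then called 8, and it also gave 8 without the DMSO library alone. With 6 and 12 h only, 0 were called between the probe forms, and 3 each against the bolus with photocaged ibufenac and the ibuprofen probe (5 each with all times). A fit of only the 18 libraries compared gave 4 between the probe forms. Leaving out each library in turn gave 7 to 10 of 10 lower with photocaged ibuprofen, 9 to 10 with photocaged ibufenac, 6 to 9 with the ibuprofen probe and 7 to 10 with the ibufenac probe against DMSO. Against the bolus it gave 6 to 7, 5 to 7, 2 to 5 and 4 to 6 in the same order. It gave 0 to 1 between the probe forms, 2 to 8 in the treatment by time term and 0 to 0 in the other averaged comparisons. The cause of these shifts was not tested, except that some fits hold fewer libraries. Most of these counts stand without the share of all genes called in the same fit, so they cannot be read against it. Low counts limit ANKRD37 and MIR210HG most.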
